A study of Mus musculus with 6 samples.

Results

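Nkx2-1, Pax8, Foxe1, Hhex, Foxa1, Foxa2 and Gata6, transcription factors of the thyroid and of the foregut it arises from, were followed in sorted cells of mouse thyroid tumors. They were taken by gene symbol, and all 7 of 7 symbols were among the 35027 genes of the deposited expression table. Within each gene, 3 libraries of tumors that expressed YAP S127A (YAP) were compared with 3 of tumors that combined YAP S127A with Braf V600E (BrafYAP). Both groups carried a Cre transgene that recombines in thyroid follicular cells, a Rosa26 allele that gives rtTA and the red fluorescent protein Kate after Cre, and the tetO-YAP1 S127A transgene, whose product is held in the nucleus. BrafYAP mice also carried an endogenous LSL-Braf allele that encodes V600E after Cre. All mice received doxycycline chow from 4 weeks of age, and about 20000 Kate-positive cells were collected per library. Per the labels, 3 tumors were pooled for a YAP library and 1 tumor was used for a BrafYAP library, so pooling and genotype cannot be told apart.

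The follicular cell of the thyroid is specified in the floor of the foregut by the joint presence of NKX2-1 (a homeodomain factor), PAX8 (a paired domain factor), FOXE1 (a forkhead factor) and HHEX (a homeodomain factor), and the same 4 factors maintain the adult cell, where they act on the genes of thyroid hormone synthesis. NKX2-1 also specifies the lung, where it works with FOXA1 and FOXA2 on the surfactant protein genes. FOXA1 and FOXA2 open chromatin in the endoderm as pioneer factors, and GATA6 is a zinc finger factor of endoderm, heart and lung.

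The libraries held 26.2 to 36.9 M estimated reads and 21865 to 22985 genes with any signal. Values are given as estimated reads (the deposited TPM with the authors' division by gene length undone), as scaled reads (the same at the authors' scaling between libraries), and as TPM on exonic length where genes are compared with each other. Counts have no molecular identifiers, so copies made in amplification cannot be told from separate molecules. Intervals from reads treat each read as independent and cover the counting error of reads only. BrafYAP 6 stood apart: its Pearson r with the other libraries, across genes on the log2 scale, was 0.731 to 0.837, against 0.833 to 0.968 for the other pairs. Log2 fold changes, ratios of mean scaled reads and list medians that move by over 1.5 times in fold without it are given both ways. Group means are over all 3 libraries. The 8 follicular markers, Tg, Tshr, Slc5a5, Iyd and Cdh16 among them, summed to 205 to 596 TPM in YAP and 31.3 to 409 TPM in BrafYAP libraries. Tshr, the thyrotropin receptor that marks the follicular cell, was at 0 reads in BrafYAP 1 and 2.

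The upstream sequences of Foxa2 and Hhex are shown because these were the factors whose genotype groups were apart, and those of the surfactant genes Sftpb and Sftpa1 because they are textbook targets of NKX2-1 and FOXA factors and were read in the same libraries. Each run lies within the 250 bases before the gene start (RefSeq, GRCm38.p6) and reads 5′ to 3′ along the gene. The RefSeq starts of Hhex and Sftpa1 lie 31 and 6 bases inside the span annotated by GENCODE. Their runs end before that span, so they hold 219 and 244 bases. Capitals mark the letters of any of 7 motifs, searched on both strands. The core bound by NKX2-1 was searched as CTCAAG, and the forkhead motif of FOX factors as TGTTTNC. The motif of TEAD factors, the DNA-binding partners of YAP, was searched as GGAATG. The AP-1 motif, bound by FOS and JUN factors, was searched as TGANTCA. The core promoter elements were the GC box, searched as GGGCGG, the box named for its letters CCAAT, and the TATA box, searched as TATAAA.
Foxa2 (chr2:148046970-148047219, minus strand): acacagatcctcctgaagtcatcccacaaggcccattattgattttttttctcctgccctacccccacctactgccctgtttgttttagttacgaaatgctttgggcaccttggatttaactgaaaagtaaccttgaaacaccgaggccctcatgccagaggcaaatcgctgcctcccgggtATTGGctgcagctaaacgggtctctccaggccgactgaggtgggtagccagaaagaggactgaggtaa
Hhex (chr19:37434591-37434809, plus strand): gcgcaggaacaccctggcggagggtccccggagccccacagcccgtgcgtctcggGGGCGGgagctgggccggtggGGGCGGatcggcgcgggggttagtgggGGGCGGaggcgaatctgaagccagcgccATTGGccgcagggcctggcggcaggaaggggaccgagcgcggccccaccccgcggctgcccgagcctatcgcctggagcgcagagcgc
Sftpb (chr6:72304360-72304609, plus strand): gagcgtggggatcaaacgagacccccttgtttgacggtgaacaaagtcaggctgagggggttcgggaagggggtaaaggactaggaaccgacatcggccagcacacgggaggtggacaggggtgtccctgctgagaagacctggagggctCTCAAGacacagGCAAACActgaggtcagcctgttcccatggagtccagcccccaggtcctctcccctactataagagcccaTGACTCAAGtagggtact
Sftpa1 (chr14:41131538-41131781, plus strand): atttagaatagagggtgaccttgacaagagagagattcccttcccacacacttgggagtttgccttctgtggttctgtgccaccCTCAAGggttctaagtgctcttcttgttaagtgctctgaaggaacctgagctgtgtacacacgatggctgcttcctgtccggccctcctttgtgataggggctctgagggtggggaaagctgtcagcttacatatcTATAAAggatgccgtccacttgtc
The Foxa2 run held 1 CCAAT box and none of the other motifs. The Hhex run, 77.2% G or C with 26 CpG sites, held 3 GC boxes and 1 CCAAT box. Neither held the NKX2-1, forkhead, TEAD or AP-1 letters. Sftpb held the NKX2-1 core at 2 places, 1 of which overlapped its AP-1 motif, and 1 forkhead motif. Sftpa1 held 1 NKX2-1 core and 1 TATA box. Among the 250 bases before all 32851 listed starts, 13.3% held the NKX2-1 core, 17.8% the forkhead, 12.6% the TEAD, 6.75% the AP-1, 32.7% the GC box, 33.8% the CCAAT box and 12.4% the TATA box letters. The Hhex and Sftpa1 runs were searched over fewer bases than these shares. A match describes letters and is not a binding site.

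Foxa2 and Hhex were the 2 of the 7 factors in which every BrafYAP library lay above every YAP library, Foxa2 by 63.3-fold and Hhex by 6.73-fold in mean scaled reads. Pax8 was lower on average in BrafYAP, with overlapping groups, and Nkx2-1, Foxe1, Foxa1 and Gata6 overlapped between genotypes. None of the 4 factors tested on the deposited values, nor of the 6 tested on scaled reads, passed an adjusted p of 0.05 (limma). Over all genes, 18 of 7319 genes (0.246%) passed on the deposited values and 0 of 16805 (0%) on scaled reads, where 3406 had an unadjusted p under 0.05. At an unadjusted p under 0.05 on scaled reads, 2 of 6 factors were higher in BrafYAP and 0 lower, beside 9.7% and 10.6% of all genes. For 2 of 6 factors the lowest BrafYAP library exceeded the highest YAP library, and for 0 the reverse held, beside 11.7% and 17.1% of all genes. The median log2 fold change of the 6 factors was 0.47, and that of all genes -0.12.

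**Figure D1:**
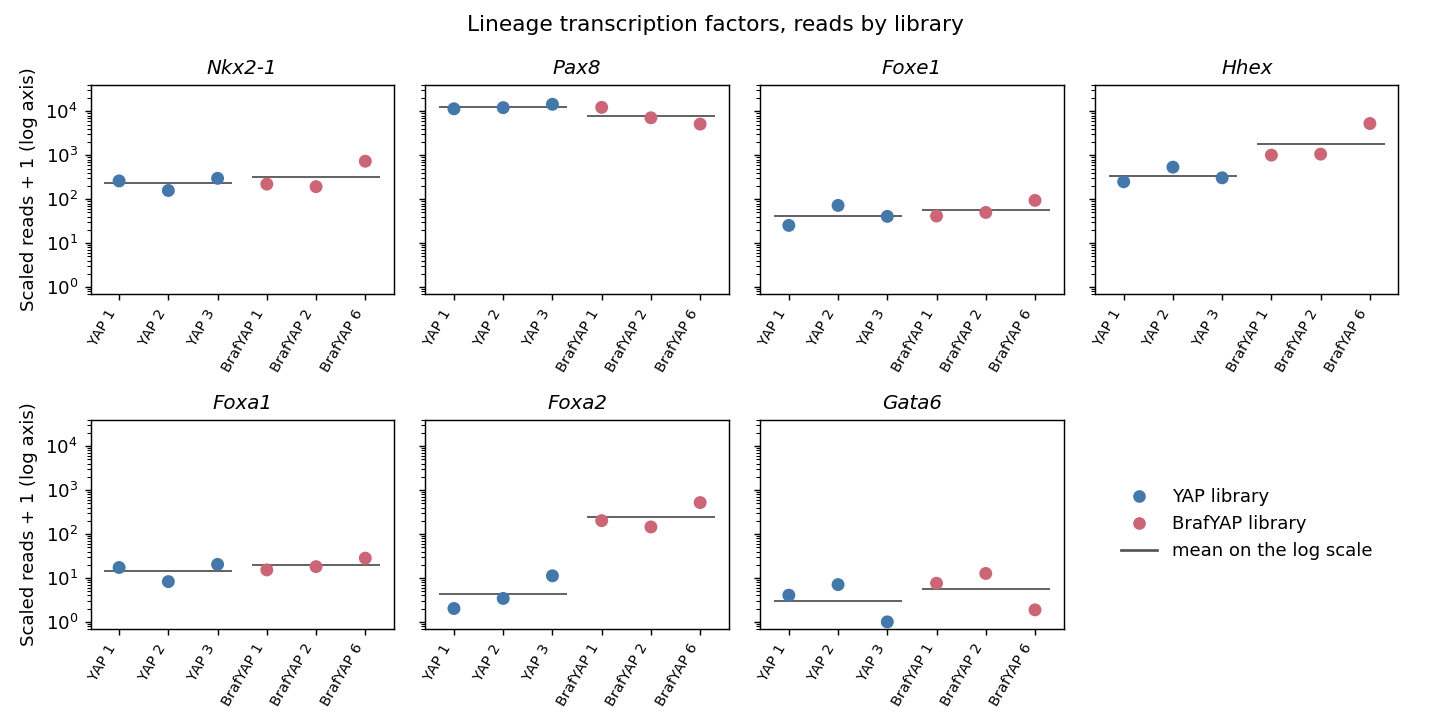
Scaled reads plus 1 of each factor by library on a log axis. Points are libraries (blue YAP, red BrafYAP) and lines are group means on the log scale. Foxa2 and Hhex are the factors whose 3 BrafYAP points all lie above the 3 YAP points.

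Foxa2 (ENSMUSG00000037025.11, chromosome 2, 148042877 to 148046969, minus strand, mm10) was close to absent from YAP tumors. It had 1, 2 and 10 estimated reads in YAP 1, 2 and 3, and 183, 185 and 590 in BrafYAP 1, 2 and 6. The lowest BrafYAP library was above the highest YAP library, and within YAP replicate 3 held most of the reads. Mean scaled reads were 4.54 ± 4.94 for YAP and 288 ± 202 for BrafYAP (SD, n = 3 each). The ratio of pooled reads, corrected for depth, was 61.6, with a 95% counting interval of 35.9 to 116. That interval leaves out the spread between tumors and any copies made in amplification. Without BrafYAP 6 the ratio of mean scaled reads was 37.9. On the deposited values the log2 fold change, on the log2(value + 1) scale, was 1.59 (SE 0.33, 95% CI 0.82 to 2.36, limma adjusted p = 0.0863). On scaled reads it was 5.86 (SE 0.81, 95% CI 3.95 to 7.77, limma adjusted p = 0.0591). An exact permutation test gave p = 0.1, two-sided, the smallest that 3 against 3 allows. Without BrafYAP 6 the limma adjusted p on the deposited values was 0.0430 with a log2 fold change of 1.21, and on scaled reads it was 0.0656.

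The reads of Foxa2 are its own as far as the annotation shows. None of its 2365 exonic words of 50 bases occurred in another gene, and no gene overlapped it. Its nearest neighbour, the lincRNA 9030622O22Rik at 2.67 kb, had 0 reads in all 6 libraries. Foxa1 (ENSMUSG00000035451.7, chromosome 12, 57540628 to 57546916, minus strand), the other pioneer factor of the pair, shared no 50-base word with it. Foxa1 had 16, 6 and 19 estimated reads in YAP and 13, 22 and 31 in BrafYAP. The groups overlapped, with a log2 fold change on scaled reads of 0.47 (SE 0.65, 95% CI -1.06 to 2.01, limma adjusted p = 0.705). The level of Foxa2 per Foxa1, in TPM on exonic length, was 0.0877, 0.468 and 0.739 in YAP and 19.8, 11.8 and 26.7 in BrafYAP. Foxa1 exceeded Foxa2 in each YAP library, and Foxa2 exceeded Foxa1 in each BrafYAP library. Foxa3, the remaining FoxA gene, had 6, 1 and 17 reads in YAP and 6, 6 and 21 in BrafYAP and was too low to test.

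Hhex (ENSMUSG00000024986.12, chromosome 19, 37434810 to 37440731, plus strand), which early thyroid precursors need to persist, was read in every library. It had 245, 444 and 301 estimated reads in YAP and 921, 1369 and 6020 in BrafYAP. BrafYAP 6 held more than the other libraries, and BrafYAP 1 and 2 also exceeded the highest YAP library. Mean scaled reads were 365 ± 153 for YAP and 2455 ± 2456 for BrafYAP (SD, n = 3 each), and the ratio of means was 2.84 without BrafYAP 6 in place of 6.73. The log2 fold change was 1.92 on the deposited values (SE 0.60, 95% CI 0.50 to 3.35, limma adjusted p = 0.149) and 2.37 on scaled reads (SE 0.68, 95% CI 0.77 to 3.96, limma adjusted p = 0.134). The exact permutation p was 0.1, again the smallest available. Without BrafYAP 6 the log2 fold change was 1.20 on the deposited values and 1.58 on scaled reads. Across 50-base words Hhex was nearly unique, with 11 of 5144 found in another gene. Gm38345, a predicted transcript 154 bases from its start on the opposite strand, had 9, 128 and 72 reads in YAP and 142, 104 and 241 in BrafYAP, with overlapping groups. Kif11, the mitotic kinesin 13.0 kb away, had 110, 156 and 198 reads in YAP and 39, 61 and 74 in BrafYAP, the opposite direction.

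Pax8 (ENSMUSG00000026976.15, chromosome 2, 24420560 to 24475599, minus strand) was the factor with the most reads. It had 11258, 10048 and 14237 estimated reads in YAP and 11260, 9204 and 5843 in BrafYAP. BrafYAP 1 lay inside the YAP range, and BrafYAP 2 and 6 lay below it. In mean scaled reads BrafYAP held 0.646 of the YAP level (0.767 without BrafYAP 6). The log2 fold change was -0.60 on the deposited values (SE 0.31, 95% CI -1.33 to 0.13, limma adjusted p = 0.327), and the exact permutation p was 0.3. Of its exonic words of 50 bases, 4.43% also lay in Gm13415, a transcript on the opposite strand that overlaps it, and since no strand was stated for the counting its reads cannot be told apart there. Gm13415 carried 86.1 to 220 reads per library, against at least 5843 for Pax8.

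Nkx2-1 (ENSMUSG00000001496.15, chromosome 12, 56531958 to 56536908, minus strand) had 256, 130 and 293 estimated reads in YAP and 201, 248 and 834 in BrafYAP. BrafYAP 6 was the highest library, and BrafYAP 1 and 2 lay within the YAP range. The ratio of mean scaled reads was 1.60 with all libraries and 0.865 without BrafYAP 6. The log2 fold change on the deposited values was 0.33 (SE 0.39, 95% CI -0.60 to 1.26, limma adjusted p = 0.657) and turned to -0.11 without BrafYAP 6. The exact permutation p was 0.7. Sfta3-ps, the neighbour 2.53 kb away on the same strand, had 1227, 856 and 594 reads in YAP and 376, 427 and 3709 in BrafYAP. BrafYAP 6 was again the highest, while BrafYAP 1 and 2 lay below all YAP libraries. The antisense transcript Gm26973 overlaps Nkx2-1 and had 17 to 77 reads per library. Of 2752 exonic words of 50 bases from Nkx2-1, 38 (1.38%) occurred in other genes.

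Foxe1 (ENSMUSG00000070990.2, chromosome 4, 46343609 to 46346412, plus strand, a single exon) had 24, 59 and 39 estimated reads in YAP and 37, 63.3 and 106 in BrafYAP. The groups overlapped, with a log2 fold change on scaled reads of 0.46 (SE 0.57, 95% CI -0.89 to 1.81, limma adjusted p = 0.672). The antisense transcript Gm12446 overlaps it and had 44 to 244 reads per library, so the reads of Foxe1 are uncertain. Of 2755 exonic words of 50 bases from Foxe1, 53 (1.92%) also lay in Gm12446. Gata6 (ENSMUSG00000005836.10, chromosome 18, 11052064 to 11085635, plus strand) had 3, 5 and 0 estimated reads in YAP and 6, 15 and 1 in BrafYAP. Its means, 0.0048 on the deposited scale and 4.70 scaled reads, were under the minimums of 1 and 10, so Gata6 was not tested in the fits across genes, and no difference was detectable at this depth.

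**Figure D2:**
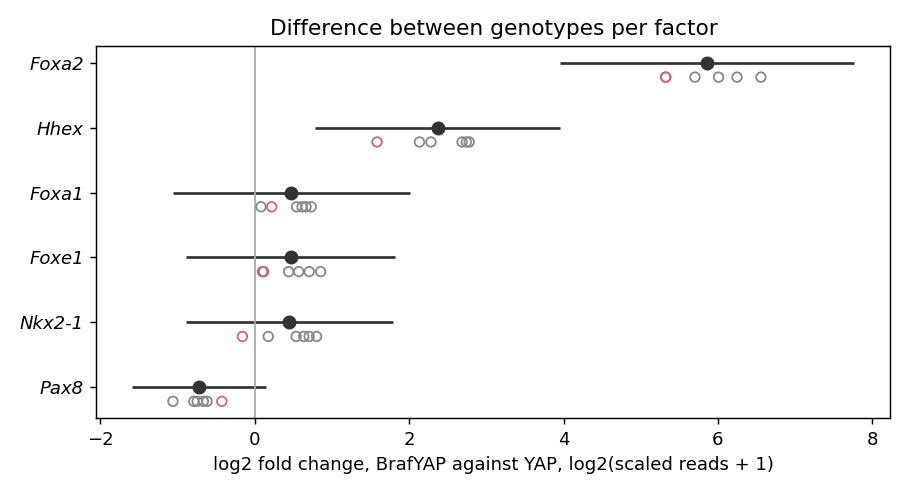
log2 fold change of BrafYAP against YAP for the 6 factors tested on scaled reads, with filled points for all 6 libraries and bars for the 95% CI. Open circles leave out 1 library each, red without BrafYAP 6. Foxa2 runs from 3.95 to 7.77, Hhex from 0.77 to 3.96, and the bars of the other 4 cross 0.

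Per exonic length, Pax8 made up most of what the 7 factors contributed together in 5 of 6 libraries. Pax8 averaged 184 ± 30.8 TPM in YAP and 123 ± 55.1 TPM in BrafYAP (SD, n = 3). In YAP the order of mean levels was Pax8, Nkx2-1 (7.42 ± 2.53 TPM), Hhex (6.26 ± 2.40), Foxe1 (1.40 ± 0.70), Foxa1 (0.381 ± 0.179), Foxa2 (0.172 ± 0.194) and Gata6 (0.0396 ± 0.0391). Nkx2-1 and Hhex overlapped in range, as did Foxa1 with Foxa2 and Foxa2 with Gata6. In BrafYAP it was Pax8, Hhex (43.7 ± 43.3 TPM), Nkx2-1 (12.1 ± 9.52), Foxa2 (10.9 ± 7.57), Foxe1 (1.97 ± 0.89), Foxa1 (0.531 ± 0.181) and Gata6 (0.0894 ± 0.0765). There the neighbours among Pax8, Hhex, Nkx2-1 and Foxa2 overlapped in range, and those from Foxa2 to Foxe1 and on to Gata6 did not.

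The share of the 7-factor sum that was Pax8 was 92.4, 91.3 and 92.6% in YAP and 84.2, 76.5 and 35.1% in BrafYAP. All BrafYAP libraries lay below all YAP libraries. Hhex made up 2.41, 4.84 and 2.35% in YAP and 8.26, 13.6 and 43.4% in BrafYAP. Foxa2 made up 0.0210, 0.0465 and 0.166% in YAP and 3.50, 3.93 and 9.07% in BrafYAP. Both shares were higher in each BrafYAP library than in any YAP library. In BrafYAP 6, Hhex exceeded Pax8, an order seen in no other library. Set against Nkx2-1, Foxa2 was 0.00468, 0.0184 and 0.0409 of its level in YAP and 1.09, 0.895 and 0.848 in BrafYAP. Foxa2 was therefore near the level of Nkx2-1 in each BrafYAP tumor, BrafYAP 6 included. Hhex per Nkx2-1 was 0.538, 1.92 and 0.577 in YAP and 2.58, 3.10 and 4.06 in BrafYAP, also without overlap.

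**Figure D3:**
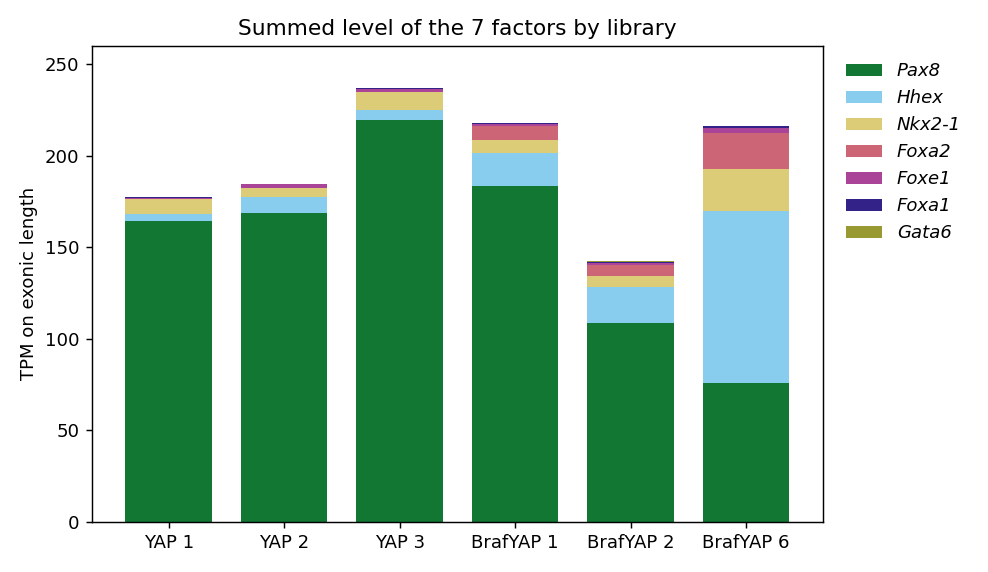
Stacked TPM on exonic length of the 7 factors by library, on a linear axis from 0. Pax8 fills 91.3 to 92.6% of the YAP bars and 35.1 to 84.2% of the BrafYAP bars, where Hhex and Foxa2 become visible.

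The patterns most like each factor over the 6 libraries were found as the smallest root mean square difference of centred log2 values among genes of at least 50 mean scaled reads. For Nkx2-1 they were Larp4b (0.11), Ppig (0.13) and Isl1 (0.13), for Pax8 they were Ago4 (0.11), Emp2 (0.12) and Syce2 (0.12), and for Foxe1 they were Wdfy2 (0.13), Camk2b (0.14) and Mbnl2 (0.15). For Hhex they were Rab27b (0.28), Slc22a17 (0.30) and Jph1 (0.31), and for Foxa1 they were Crebl2 (0.15), Abhd2 (0.19) and Carnmt1 (0.19). For Foxa2 they were Meg3 (0.67), Rab3b (0.86) and Rasgrf1 (0.89). These differences scale with the spread of the factor itself, whose standard deviation was 3.36 for Foxa2, 1.60 for Hhex, 1.37 for Gata6 and 0.58 to 0.78 for the other 4. Meg3 had 6, 21 and 26 reads in YAP and 359, 1039 and 1979 in BrafYAP. For Gata6, at few reads, they were Cdh13 (0.28), Gfra2 (0.40) and C1qtnf2 (0.41). Among the 15 pairs of factors other than Gata6, Nkx2-1 and Foxa1 were nearest (0.39) and Pax8 and Foxa2 farthest (3.45).

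The genes around the factors were read from lists of thyroid genes, lung genes, other foregut transcription factors, family members, cofactors and gastric or hepatic genes. On scaled reads no list held a gene past the adjusted threshold (limma). Of 16 thyroid genes 13 were tested. At an unadjusted p under 0.05, 0 were higher and 2 lower, where 9.7% and 10.6% of all genes were. Their median log2 fold change was -1.40 (-2.07 without BrafYAP 6). Cdh16, the kidney and thyroid cadherin, had 5352, 2510 and 8809 reads in YAP and 2003, 932 and 951 in BrafYAP. Its groups did not overlap (log2 fold change -2.27, SE 0.55, limma adjusted p = 0.108). Iyd, which recycles iodide, had 4413, 1969 and 3478 reads in YAP and 702, 297 and 2363 in BrafYAP (log2 fold change -2.23, SE 0.75, limma adjusted p = 0.170). Iyd was lower in scaled reads in every BrafYAP library than in any YAP library, and its log2 fold change was -2.99 without BrafYAP 6. Of the 13 tested, 4 had every BrafYAP library below every YAP library and 0 the reverse, beside 17.1% and 11.7% of all genes.

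Tg, the thyroid hormone precursor and a target of NKX2-1, PAX8 and FOXE1, had 6476, 1046 and 16193 reads in YAP and 116, 66 and 22118 in BrafYAP. Tshr, the thyrotropin receptor, had 140, 51 and 25 reads in YAP and 0, 0 and 554 in BrafYAP. For both genes BrafYAP 1 and 2 were below all YAP libraries, and BrafYAP 6 was above all of them. The log2 fold changes were -3.35 for Tg and -2.98 for Tshr, with limma adjusted p of 0.411 and 0.492. Without BrafYAP 6 they were -5.98 for Tg and -5.95 for Tshr (limma adjusted p of 0.0804 and 0.0612). Slc5a5, the sodium iodide symporter, had 13, 15 and 12 reads in YAP and 10, 3 and 640 in BrafYAP, and its log2 fold change of 0.88 became -1.28 without BrafYAP 6. Pax8 in BrafYAP 1, at 11260 reads, stood beside 116 reads of Tg and 0 of Tshr.

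**Figure D4:**
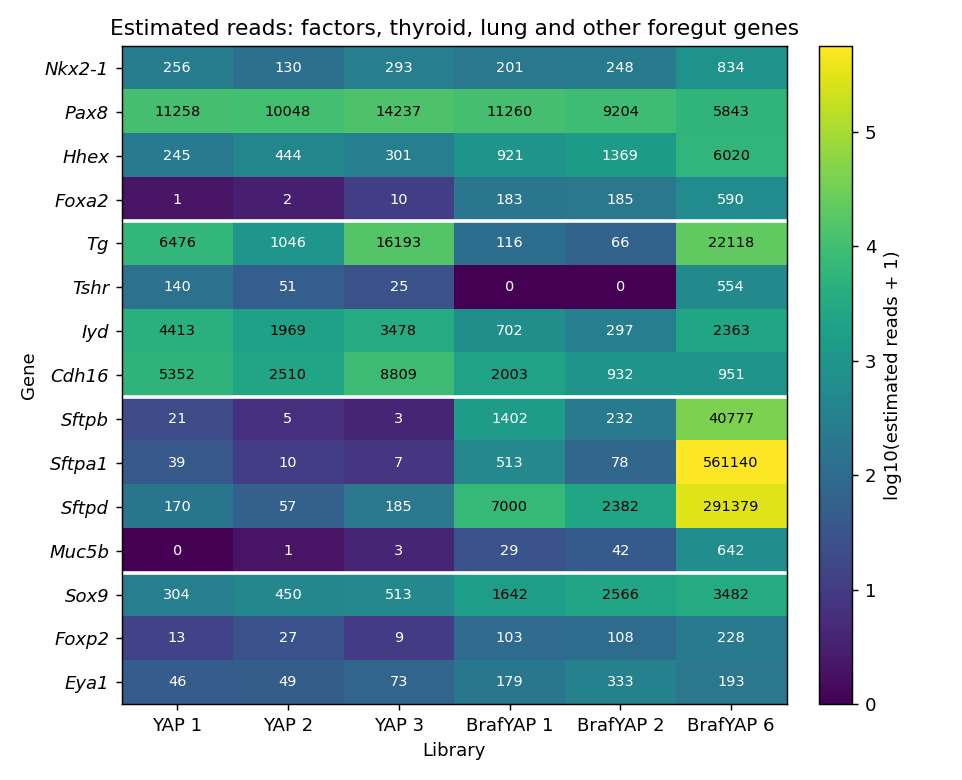
Estimated reads of 4 factors, 4 thyroid genes, 4 lung genes and 3 other foregut factors (blocks from top to bottom) by library, colored by log10(reads + 1). Tg and Tshr are low in BrafYAP 1 and 2 and high in BrafYAP 6, and Foxa2, Sftpb and Sftpd are higher in each BrafYAP library than in the YAP libraries.

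Of 16 lung genes 14 were tested, of which 4 were higher and 1 lower at an unadjusted p under 0.05 (all genes, 9.7% and 10.6%). The lower gene was Lyz2, which is also in the list of macrophage markers. The median log2 fold change of the 14 lung genes was 1.17 (-0.10 without BrafYAP 6). Sftpb, surfactant protein B, had 21, 5 and 3 reads in YAP and 1402, 232 and 40777 in BrafYAP (log2 fold change 7.97, SE 1.76, limma adjusted p = 0.0976). Sftpd, surfactant protein D, had 170, 57 and 185 reads in YAP and 7000, 2382 and 291379 in BrafYAP (log2 fold change 6.86, SE 1.62, limma adjusted p = 0.107). Sftpa1, surfactant protein A, had 39, 10 and 7 reads in YAP and 513, 78 and 561140 in BrafYAP (log2 fold change 7.30, SE 2.96, limma adjusted p = 0.228). Muc5b, an airway mucin, had 0, 1 and 3 reads in YAP and 29, 42 and 642 in BrafYAP (log2 fold change 5.36, SE 1.25, limma adjusted p = 0.104). All 4, named by their fold change in these same libraries, were higher in each BrafYAP library than in any YAP library. BrafYAP 6 was the highest. Of the 14 tested, 4 had every BrafYAP library above every YAP library and 0 the reverse, beside 11.7% and 17.1% of all genes. Without BrafYAP 6 the log2 fold changes were 5.94 for Sftpb, 4.83 for Sftpd, 3.51 for Sftpa1 and 4.00 for Muc5b, with limma adjusted p of 0.0843, 0.0656, 0.178 and 0.0843. Sftpc, which defines the alveolar type 2 cell, was at 0 reads in 5 libraries and at 507 in BrafYAP 6. Lamp3, of the lamellar bodies, had 9, 10 and 5 reads in YAP and 4, 4 and 5815 in BrafYAP. Napsa, an aspartic protease, had 7152, 3901 and 6765 reads in YAP and 9906, 3962 and 313458 in BrafYAP. Both were highest in BrafYAP 6 and overlapped between genotypes, as did the other alveolar markers Abca3 and Slc34a2.

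Of 38 other foregut factors 37 were in the table, 10 were at 0 reads in all libraries and 20 were tested. At an unadjusted p under 0.05, 5 were higher and 1 lower, beside 9.7% and 10.6% of all genes, and the median log2 fold change was 0.94 (0.62 without BrafYAP 6). Sox9, a factor of distal lung and other endodermal buds, had 304, 450 and 513 reads in YAP and 1642, 2566 and 3482 in BrafYAP (log2 fold change 2.32, SE 0.36, limma adjusted p = 0.0666). Foxp2, a forkhead repressor of lung epithelium, had 13, 27 and 9 reads in YAP and 103, 108 and 228 in BrafYAP (log2 fold change 2.88, SE 0.62, limma adjusted p = 0.0950). Eya1, a transcriptional cofactor with phosphatase activity, had 46, 49 and 73 reads in YAP and 179, 333 and 193 in BrafYAP (log2 fold change 1.78, SE 0.38, limma adjusted p = 0.0929). All 3, named by their fold change in these same libraries, were without overlap, BrafYAP above. Of the 20 tested, 6 had every BrafYAP library above every YAP library and 1 the reverse, beside 11.7% and 17.1% of all genes.

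Among 12 cofactors, all tested, 1 was higher and 2 lower at an unadjusted p under 0.05, beside 9.7% and 10.6% of all genes, with a median of -0.48. Wwtr1, which encodes TAZ, a partner of NKX2-1 and PAX8 and the paralog of YAP, had 919, 2271 and 1199 reads in YAP and 3570, 7001 and 2817 in BrafYAP (log2 fold change 1.36, SE 0.49, limma adjusted p = 0.188). The groups overlapped in scaled reads. Parp1 had 1703, 2138 and 2306 reads in YAP and 916, 1267 and 718 in BrafYAP (log2 fold change -1.36, limma adjusted p = 0.104). Rb1 had 187, 106 and 140 reads in YAP and 75.7, 68 and 50 in BrafYAP (log2 fold change -1.38, limma adjusted p = 0.143). Of 16 family members of the factors 14 were in the table and 5 tested, and of 18 gastric or hepatic genes 5 were tested. Neither list held a gene at an unadjusted p under 0.05, with medians of 1.58 and -0.89.

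**Figure D5:**
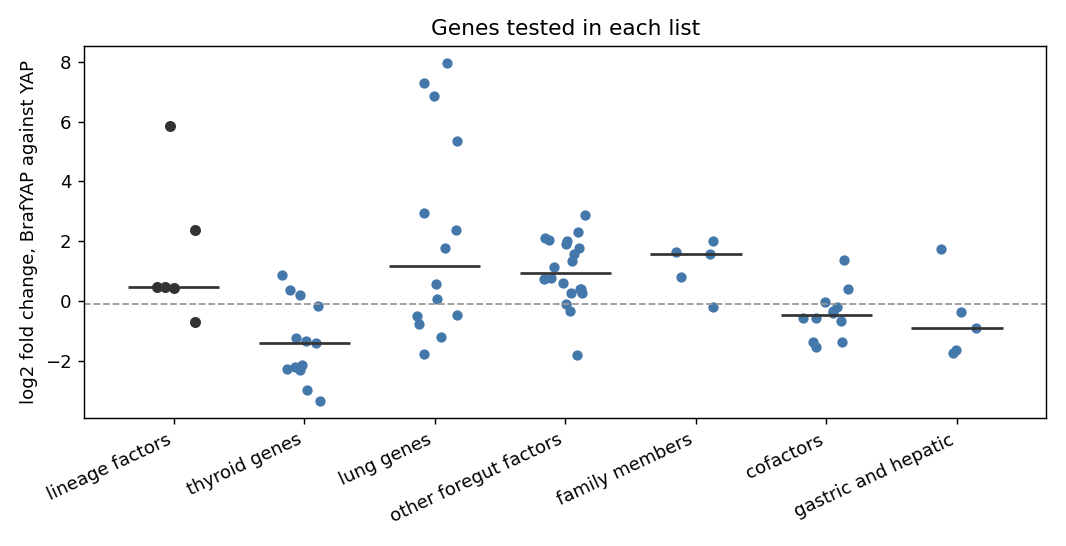
log2 fold changes on scaled reads of the genes tested in each list (points), with each list's median (solid line) and the median of all genes, -0.12 (dashed line). The thyroid genes have a median of -1.40 (-2.07 without BrafYAP 6) and the lung genes one of 1.17 (-0.10 without BrafYAP 6).

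Markers of other cells were read beside these values, and in bulk libraries fewer cells of a type and less RNA per cell cannot be told apart. Macrophage markers (macrophages can express Hhex and Gata6) summed to 15261 to 49216 TPM in YAP and 4289 to 14983 TPM in BrafYAP. For 8 of 10 all BrafYAP libraries lay below all YAP libraries in scaled reads, beside 17.1% of all genes. Endothelial markers, of cells that also express Hhex, summed to 4.34 to 33.6 TPM in YAP and to 3.41, 2.16 and 40.8 TPM in BrafYAP 1, 2 and 6. Both the endothelial sum and Hhex were highest in BrafYAP 6 and, within YAP, in YAP 2. The YAP 2 sum rested largely on Kdr, with 348, 2574 and 134 reads in YAP. Tek, Emcn and Tie1 were also highest in YAP 2 within YAP, but Pecam1, Cdh5, Vwf and Erg were not. In BrafYAP 1 and 2 the endothelial sum lay below all YAP libraries and Hhex above them. Markers of C cells, which also express Nkx2-1, Foxa1 and Foxa2, summed to 63.2, 94.2 and 3.49 TPM in YAP and 2.61, 4.54 and 339 TPM in BrafYAP. Calca, which defines C cells, had 1102, 500 and 30 reads in YAP and 0, 5 and 880 in BrafYAP. Calcb had 11, 21 and 4 reads in YAP and 19, 52 and 296 in BrafYAP, and BrafYAP 6 was the highest library for the C-cell sum and for Foxa2. Alveolar type 2 markers summed to 205 to 350 TPM in YAP and 802, 235 and 36075 TPM in BrafYAP. Parathyroid markers summed to 637 TPM in BrafYAP 6, against 0 to 107 TPM in the other libraries, and their part in the values of that library was not tested. Epithelial markers summed to 7554 to 23657 TPM in YAP and 11131 to 25188 TPM in BrafYAP, and overlapped. Leukocyte markers had a lower sum in BrafYAP (266 to 644 TPM against 741 to 1659). Their list shares Csf1r, Cd68 and Adgre1 with the macrophage list. Of its 15 markers, 4 had all BrafYAP libraries below all YAP libraries, beside 17.1% of all genes. Fibroblast markers overlapped (136 to 265 and 144 to 284 TPM), and skeletal muscle markers were low (1.37 to 21.6 TPM), with Myh1 at 0 in all 6. The part of these differences in the values of the factors was not tested.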

How the data were processed

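RNA was read from Kate-positive cells of 3 YAP and 3 BrafYAP libraries, amplified by SMART-Seq (12 cycles, then 8 PCR cycles) and sequenced as 50-nt pairs. Groups, pooling and age at dox follow the labels. The study's methods name 1 tumor per mouse as a replicate, with no pools named, and its results give a later start of dox. The authors ran bcl2fastq 2.2, aligned to mm10 with STAR 2.6.1d, quantified with Partek's E/M model on Ensembl 95, and deposited TPM with 0.0001 added. The deposited TPM appeared to have been divided by genomic span, and all estimated reads rest on that reading: low values fell within 0.05 of whole multiples of a per-library step in 71.7 to 76.0% of cases with the span and in 22.3 to 24.9% with the exonic length (GENCODE M21). Estimated reads were recovered from that step and the span, for 34640 symbols at one locus, and 34 of 42 values of the 7 factors came out whole within 0.05. TPM on exonic length was recomputed from them.

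The genotypes were compared in limma 3.58.1 (R 4.3.3, trend, two-sided, Benjamini-Hochberg, threshold 0.05) on log2(deposited TPM + 1) over genes whose mean was 1 or more. Factors below that minimum, and the lists, were taken from log2(scaled reads + 1) with a mean of at least 10. The code was tested on simulated data. The members and lists were chosen with earlier results of these data known. Named list genes were those past the threshold, then up to 4 per list by fold change at an unadjusted p under 0.05, plus Tg, Tshr and Slc5a5. Some items that this rule names are not reported here. Alternatives were other pseudocounts, minimums, scalings, lengths, weights, a replicate block and leaving out each library.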

Additional observations from a re-analysis of the deposited data

How the results depend on the processing

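Over all genes, the count past the threshold was 18 and was 1 without the trend, after median-ratio rescaling or at a pseudocount of 0.1, 3 of 2094 with a minimum mean of 10, and 0 on scaled reads (3406 at an unadjusted p under 0.05). It was 63 on exonic length and 1393 with array weights, which give libraries unequal influence. Leaving out 1 library each gave 0 to 475, with 475 without YAP 2 and 20 without BrafYAP 6 (8 shared with the 18). The count of factors past the threshold was 0, but 2 with array weights (Foxa2 and Hhex), 1 on exonic length (Foxa2) and 0 to 1 when 1 library was left out (Foxa2 without BrafYAP 6). Foxa2 had a log2 fold change of 1.23 (limma adjusted p = 0.00913) with array weights and 3.18 (0.0466) on exonic length, and 1.21 to 1.85 when 1 library was left out. Its limma adjusted p ran from 0.00913 to 0.246 over all alternatives. Hhex had 1.39 with array weights (adjusted p = 0.0262, range 0.0262 to 0.413). Nkx2-1 turned to -0.17 with array weights and ran from -0.11 to 0.58 when 1 library was left out. Slc5a5 turned to -0.76 with array weights and -1.39 with the replicate block, and ran from -1.28 to 2.42 when 1 library was left out. Pax8, Foxe1 and Foxa1 kept their direction and their side of the threshold in every alternative that gave a value. Of the 15 list genes named, 12 passed with array weights and 0 under any other alternative. The cause of these shifts was not tested.

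The replicate numbers 1 and 2 are shared by both groups, but samples of the same number did not deviate together (r = -0.03 and 0.05 over 16805 genes), so they share only a number. With the replicate block 0 genes passed (987 at an unadjusted p under 0.05). Rescaling by median ratios moved the median of all genes on scaled reads from -0.12 to 0.01. A minimum mean of 10 left none of the 7 factors. Depth limits Gata6, Foxa1 and Foxe1, and Foxa2 in YAP, which rests on 13 reads over 3 libraries.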
